A study of Arabidopsis thaliana with 30 samples.

Results

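The mitochondrial genome transcripts described here are the rows of the expression table whose locus identifier starts with ATMG and that reached 1 FPKM (fragment counts divided by transcript length and by library size) in at least 3 of the 30 libraries. Of 162 mitochondrial rows among 38088 rows in all, 81 met this rule. They comprise 2 ribosomal RNAs, 13 rows for subunits of complex I, 1 for complex III, 3 for complex IV and 5 for complex V, 5 for cytochrome c maturation, 7 for ribosomal proteins, the maturase MATR and 44 open reading frames with no class assigned here.

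Seedlings of Arabidopsis thaliana, 7 days old and grown at 22 °C, were sampled after 85 min at 44 °C in a water bath (heat) or without it (control). The genotypes were smxl4 smxl5, smxl6 smxl7 smxl8, ski2 dcl4, ski2 dcl4 dcl2 and the wild type Col-0, each with 3 heat and 3 control libraries. SMXL proteins act in hormone signalling or phloem development, SKI2 is a helicase of cytoplasmic RNA decay, and DCL2 and DCL4 are Dicer-like enzymes that make small RNAs. The labels do not say that the libraries of a group came from separate plates, so every p-value below reflects only how these samples scatter, part of which may be technical.

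The plant mitochondrial genome encodes ribosomal RNAs, transfer RNAs and a small set of proteins, most of them subunits of the respiratory chain and of ATP synthase, while the other subunits come from the nucleus. Its RNAs are made by nuclear-encoded polymerases, are spliced and edited in the organelle, and are in part joined from separately transcribed pieces (trans-splicing). Plant mitochondrial RNAs carry no lasting poly(A) tail, and added A stretches mark them for decay. The labels name an mRNA-seq protocol and do not say how mRNA was selected, so the amount of an RNA and the share of it that entered the libraries cannot be told apart. In whole seedlings, fewer cells of a type and less RNA per cell cannot be told apart either.

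Both shoot and root markers were present: LHCB2.1, RCA, CAB4, PYK10, SCR and SHR exceeded 1 FPKM in all 30 libraries and COBL9 in 29, while LHCB1.3, a highly expressed light-harvesting gene, was listed at 0 in all 30, so a value of 0 in this table can be a failed estimate. Correlations within groups lay between 0.971 and 0.987. Judged by the step that a single fragment makes in low genes, 1 FPKM in a transcript of 1 kb stood for about 13.5 to 19.0 fragments in heat libraries and 17.8 to 25.1 in control libraries. The transcript levels of the mutated genes went against 1 label at control: SMXL5 averaged 15.01 ± 0.423 FPKM in control libraries with the label smxl4 smxl5 and 4.57 ± 0.464 in those of Col-0 (SD, n = 3 each), and SMXL4 averaged 3.22 ± 0.318 and 1.93 ± 0.154. At control, the means of SMXL7 in smxl6 smxl7 smxl8 and of DCL4 in ski2 dcl4 were also not below those of Col-0, at 8.20 ± 0.987 FPKM in smxl6 smxl7 smxl8 beside 8.09 ± 1.11 in Col-0, and at 3.44 ± 0.219 in ski2 dcl4 beside 3.41 ± 0.325 in Col-0. SKI2 was lower in both ski2 genotypes, at most 3.35 FPKM on average against 6.41 ± 0.192 in the Col-0 control group. After heat, SMXL5 averaged 3.05 ± 0.239 FPKM with the label smxl4 smxl5 and 3.12 ± 0.269 in Col-0, SMXL4 1.08 ± 0.253 and 2.22 ± 0.148, SMXL7 3.19 ± 0.311 in smxl6 smxl7 smxl8 and 8.09 ± 0.989 in Col-0, and DCL4 2.35 ± 0.191 in ski2 dcl4 and 3.26 ± 0.458 in Col-0. The group of the first label is called the libraries labelled smxl4 smxl5.

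Heat libraries held far more mitochondrial RNA signal than control libraries in every genotype. The summed FPKM of the mitochondrial rows was 1791, 2239 and 2121 in the heat libraries labelled smxl4 smxl5, 1364, 1344 and 1395 from smxl6 smxl7 smxl8, 1153, 1173 and 859 from ski2 dcl4, 898, 825 and 966 from ski2 dcl4 dcl2, and 877, 1292 and 1019 in Col-0. Over the 15 control libraries the sum lay between 10.9 and 19.2. The lowest heat library was thus above the highest control library, and the ratio of group means was 154 in the libraries labelled smxl4 smxl5, 87.6 for smxl6 smxl7 smxl8, 62.7 for ski2 dcl4, 59.1 for ski2 dcl4 dcl2 and 76.1 in Col-0. The share of all summed FPKM was 0.0823% to 0.209% in heat libraries and 0.00132% to 0.00260% in control libraries. The plastid rows did not separate in this way: their sums ran from 117 to 2814 FPKM in heat libraries and from 103 to 1745 in control libraries, with overlap.

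**Figure D1:**
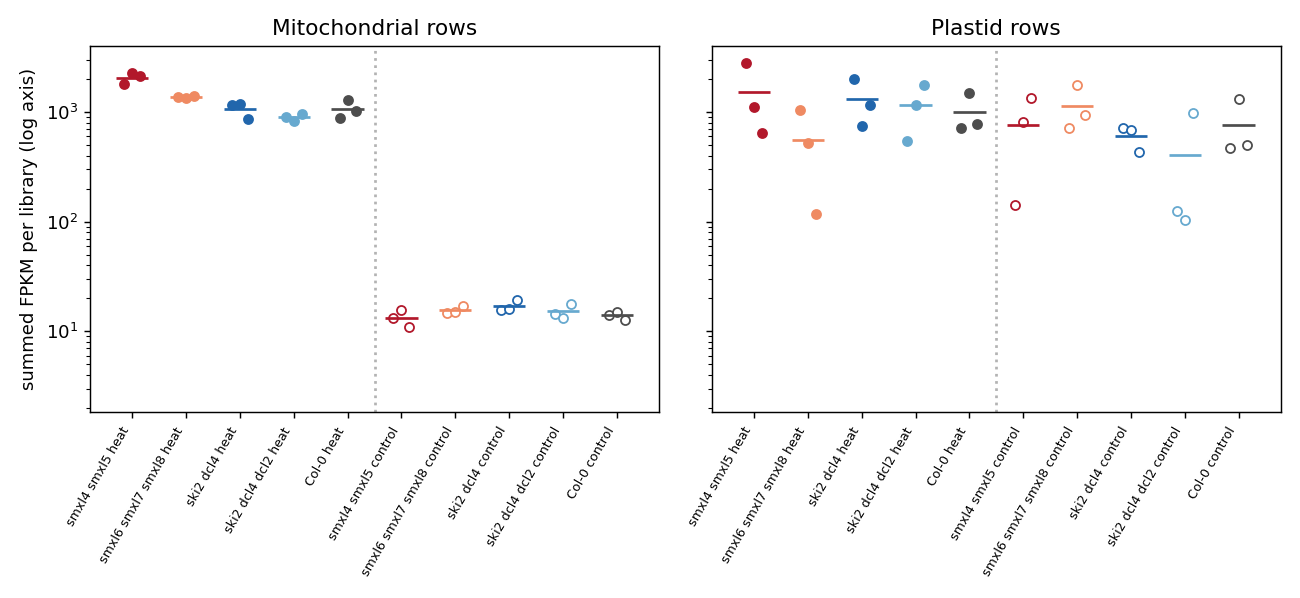
Summed FPKM of mitochondrial rows (left) and plastid rows (right) in each library, on a log axis, with 5 heat groups left of 5 control groups. Filled points are heat libraries, open points are control libraries and bars are group means of 3 libraries. Mitochondrial sums of at least 825 in heat libraries stand apart from control sums of at most 19.2, while plastid sums overlap.

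The rule for choosing members leans on the heat libraries: the control libraries alone would have kept 6 members, and the heat libraries alone keep all 81. Counts and medians of heat changes over the members are therefore a description and lend no weight to a heat effect. Without that rule, 121 of the 162 rows had a value above 0 in some library, and the mean of the heat group was the higher in 111 of them in the libraries labelled smxl4 smxl5, 110 for smxl6 smxl7 smxl8, 110 for ski2 dcl4, 107 for ski2 dcl4 dcl2 and 103 for Col-0. A lower heat mean occurred in 1 row in Col-0 and in none in the other genotypes. Of the rows that are no members, 41 were listed at 0 in all 30 libraries, among them all 21 transfer RNAs, the 5S ribosomal RNA RRN5, NAD5B and 16 rows without a name. Just inside the threshold, the third-highest value was 1.25 FPKM for COB, 1.20 for ORF145A and for ORF145C and 1.08 for ORF170. Just outside it was 0.996 for ORF143, 0.862 for ORF107H, 0.854 for ORF105A and 0.842 for ORF106A.

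Levels after heat were uneven among the members. RRN18, the 18S RNA of the small ribosomal subunit, averaged 438 FPKM over the 15 heat libraries and RRN26, the 26S RNA of the large subunit, 163, and these 2 made up 46.7% of the mitochondrial sum. The first 10 members in this order, which go on with NAD5C at 78.8 FPKM, RPL16 at 68.9, NAD6 at 66.3, ORF114 at 62.2, ORF240A at 37.3, ORF111D at 33.2, ORF149 at 31.8 and ATP9 at 28.5, made up 78.3%. NAD5C and RPL16, like RPL16 and NAD6, overlapped between libraries in several groups, so their order is not fixed. In 44 members every heat library reached 1 FPKM. In the control libraries, 7 members had a value above 0 in all 15: RRN18, RRN26, COX2, ATP1, MATR, ORF149 and ORF240A, whereas 17 members were listed at 0 in all 15. Only 9 members reached 1 FPKM in any control library.

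**Figure D2:**
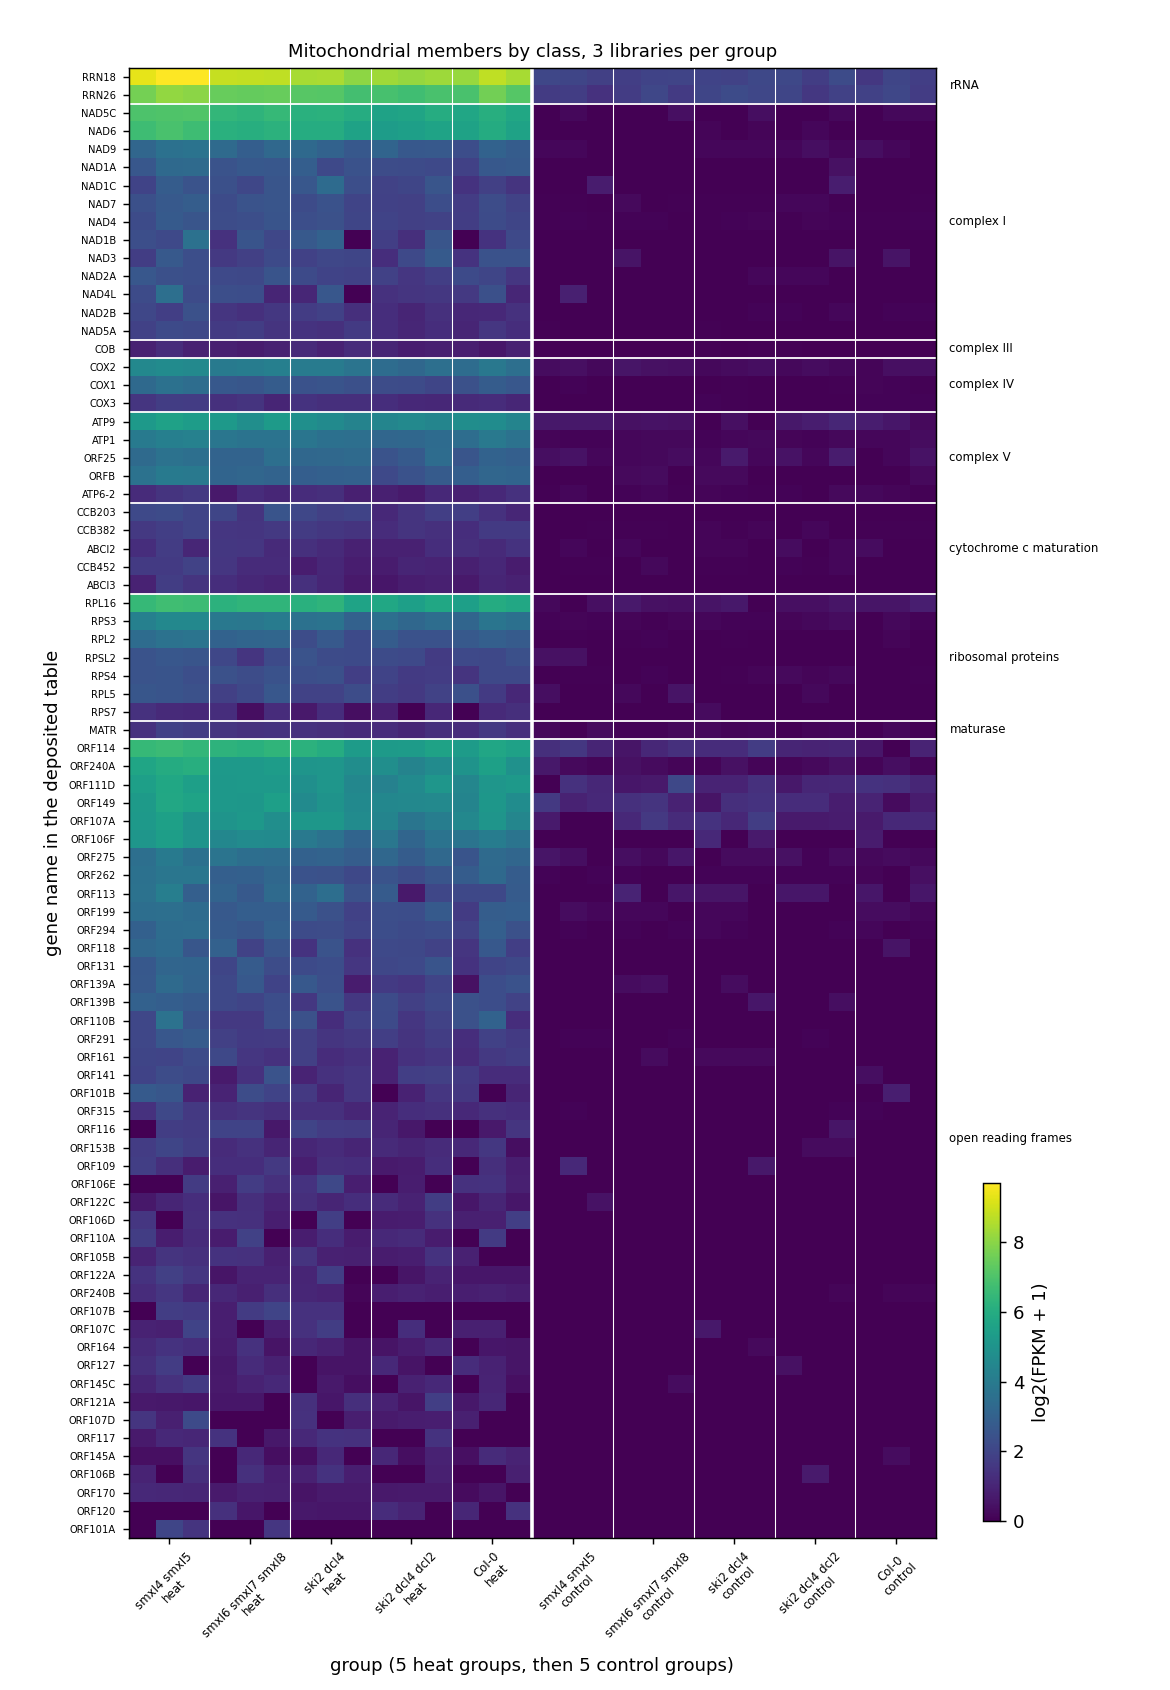
Level of each of the 81 members in each library as log2(FPKM + 1), with members in rows by class and, within a class, by mean level, and the 5 heat groups left of the 5 control groups, 3 libraries each. The 18S and 26S rows are the brightest in the heat columns, and most control columns lie at or near 0.

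The ribosomal RNAs had the highest levels and rose in all genotypes. RRN18 had 641, 811 and 828 FPKM in the heat libraries labelled smxl4 smxl5, 454, 448 and 432 from smxl6 smxl7 smxl8, 346, 352 and 264 from ski2 dcl4, 319, 287 and 312 from ski2 dcl4 dcl2, and 297, 441 and 343 in Col-0. In the control libraries RRN18 had 3.21, 3.04 and 2.55 FPKM where labelled smxl4 smxl5, 2.47, 2.83 and 2.98 from smxl6 smxl7 smxl8, 2.87, 2.78 and 3.28 from ski2 dcl4, 3.29, 2.37 and 3.60 from ski2 dcl4 dcl2, and 2.00, 3.12 and 2.44 in Col-0. Heat and control libraries were far apart, and among heat libraries those labelled smxl4 smxl5 were all above the rest. The heat-to-control ratio of RRN18 means was 259 in the libraries labelled smxl4 smxl5, 161 for smxl6 smxl7 smxl8, 108 for ski2 dcl4, 99.3 for ski2 dcl4 dcl2 and 143 in Col-0. In Col-0 the change of RRN18 was 6.67 ± 0.14 (SE) on the log2(FPKM + 1) scale, which understates changes of low genes, with an adjusted p of 1.46e-20 in limma.

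RRN26 had 205, 276 and 258 FPKM in the heat libraries labelled smxl4 smxl5, 175, 169 and 172 from smxl6 smxl7 smxl8, 145, 140.1 and 109.5 from ski2 dcl4, 117, 103 and 118 from ski2 dcl4 dcl2, and 119.5, 199 and 140.4 in Col-0. Control libraries had 1.63 to 3.61 FPKM of RRN26. The ratio of heat to control means of RRN26 was 119 in the libraries labelled smxl4 smxl5, 68.1 for smxl6 smxl7 smxl8, 40.2 for ski2 dcl4, 43.2 for ski2 dcl4 dcl2 and 56.1 in Col-0, lower than for RRN18 in each. Accordingly, the ratio of 18S to 26S FPKM was 2.21 to 3.22 in the 15 heat libraries and 0.753 to 1.57 in the 15 control libraries, without overlap. Within heat it was 3.12, 2.94 and 3.22 in the libraries labelled smxl4 smxl5 against 2.48, 2.21 and 2.44 in Col-0, also without overlap. Heat libraries of smxl6 smxl7 smxl8, at 2.59, 2.65 and 2.51, and of ski2 dcl4 dcl2, at 2.73, 2.78 and 2.65, lay above Col-0 as well. Those of ski2 dcl4 overlapped with Col-0, at 2.39, 2.52 and 2.41. At control the ratio was already 1.45, 1.29 and 1.57 with the label smxl4 smxl5 against 0.753, 0.976 and 1.04 in Col-0, without overlap. No test was run on this ratio, since an exact permutation test of 3 against 3 libraries cannot go below a two-sided p of 0.1.

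The heat effect was called by limma at an adjusted p under 0.05 in 65 members in Col-0, 12 of 13 for complex I and 29 of 44 open reading frames among them. In that comparison 29.9% of the 21531 genes tested were called higher and 27.3% lower, and no member was lower, nor was any at an unadjusted p under 0.05. The members called higher were 78 in the libraries labelled smxl4 smxl5 (29.9% of all genes higher, 24% lower), 74 for smxl6 smxl7 smxl8 (28.7% higher, 24.1% lower), 73 for ski2 dcl4 (32% higher, 23.6% lower) and 70 for ski2 dcl4 dcl2 (25.8% higher, 24.3% lower), and none was lower in any of these, at an unadjusted p under 0.05 included. The median member change was 2.26 in the libraries labelled smxl4 smxl5, 1.85 for smxl6 smxl7 smxl8, 1.77 for ski2 dcl4, 1.52 for ski2 dcl4 dcl2 and 1.57 in Col-0 (log2), beside medians between 0.01 and 0.06 over all genes tested. With no filter on low values, the mitochondrial rows called higher among 121 tested were 91 in the libraries labelled smxl4 smxl5 (21% of 30313 genes), 86 for smxl6 smxl7 smxl8 (19.9%), 84 for ski2 dcl4 (22.9%), 74 for ski2 dcl4 dcl2 (18.3%) and 73 in Col-0 (21.2%).

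Among complex I rows, the proton-pumping NADH dehydrogenase that feeds electrons into the chain, NAD5C and NAD6 stood far above the other 11 members. NAD5C, a row for 1 of the pieces from which the trans-spliced nad5 transcript is joined, had 126, 131 and 132 FPKM in the heat libraries labelled smxl4 smxl5, 84.1, 78.6 and 90.0 from smxl6 smxl7 smxl8, 70.0, 72.4 and 63.8 from ski2 dcl4, 46.5, 49.5 and 63.4 from ski2 dcl4 dcl2, and 52.8, 67.2 and 54.0 in Col-0. Control libraries held at most 0.302 FPKM of NAD5C. The other rows of the same gene were low or absent: NAD5A averaged 3.16 ± 0.415 FPKM in the heat libraries labelled smxl4 smxl5 and 1.43 ± 0.431 in heat libraries of Col-0 (SD, n = 3 each), and NAD5B was listed at 0 throughout. NAD5C and NAD5A, rows for pieces of 1 transcript, thus differed widely in FPKM. The 0 of NAD5B can be a failed estimate and was not read as a level.

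NAD6, a membrane subunit of complex I, had 102, 119 and 101 FPKM in the heat libraries labelled smxl4 smxl5, 70.3, 67.1 and 74.7 from smxl6 smxl7 smxl8, 62.9, 63.2 and 47.5 from ski2 dcl4, 39.8, 43.0 and 48.6 from ski2 dcl4 dcl2, and 47.5, 61.9 and 46.7 in Col-0. Control libraries held at most 0.117 FPKM of it, and 12 of 15 were at 0. NAD9, a subunit of the hydrophilic arm, averaged 10.6 ± 2.05 FPKM in the heat libraries labelled smxl4 smxl5 and 5.74 ± 1.70 in those of Col-0. NAD1C, another trans-spliced piece, went in a different order: it had 5.26, 9.39 and 4.05 FPKM in ski2 dcl4 heat libraries, 2.90, 6.06 and 4.58 in those labelled smxl4 smxl5, and 1.69, 2.57 and 1.72 in those of Col-0.

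Complexes III and IV pass electrons on to oxygen. COX2, a core subunit of cytochrome c oxidase, had 22.0, 24.5 and 22.4 FPKM in the heat libraries labelled smxl4 smxl5, 14.5, 15.9 and 17.4 from smxl6 smxl7 smxl8, 15.3, 15.5 and 12.3 from ski2 dcl4, 9.84, 8.397 and 10.8 from ski2 dcl4 dcl2, and 9.64, 13.8 and 10.8 in Col-0. Control values of COX2 lay between 0.0829 and 0.479 FPKM. COX1, the catalytic core subunit, averaged 10.1 ± 1.19 FPKM in the heat libraries labelled smxl4 smxl5 and 5.14 ± 0.877 in those of Col-0. COB, the cytochrome b of complex III, stayed low after heat, at 0.839, 1.36 and 0.840 FPKM in libraries labelled smxl4 smxl5 and 0.753, 0.485 and 0.866 in Col-0, which overlap.

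In complex V, the ATP synthase, ATP9 (a subunit of the membrane ring) had the highest level, at 36.2, 46.3 and 39.6 FPKM in the heat libraries labelled smxl4 smxl5, 36.1, 26.4 and 38.4 from smxl6 smxl7 smxl8, 27.1, 24.0 and 19.1 from ski2 dcl4, 20.4, 22.9 and 20.5 from ski2 dcl4 dcl2, and 25.7, 25.4 and 19.5 in Col-0. ATP1, the alpha subunit of the catalytic head, had 14.8, 17.3 and 18.3 FPKM in the libraries labelled smxl4 smxl5 against 10.2, 14.3 and 11.6 in Col-0. ORFB, known as atp8, averaged 13.6 ± 1.70 and 7.40 ± 0.876, and ORF25, known as atp4, averaged 10.6 ± 1.17 and 6.28 ± 1.22 in these groups (SD, n = 3 each). All 4 were higher, without overlap, in the libraries labelled smxl4 smxl5.

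The ribosomal proteins were led by RPL16, with 88.6, 105 and 99.8 FPKM in the heat libraries labelled smxl4 smxl5, 74.0, 79.9 and 80.6 from smxl6 smxl7 smxl8, 70.4, 77.5 and 47.7 from ski2 dcl4, 53.3, 43.0 and 54.3 from ski2 dcl4 dcl2, and 43.0, 61.8 and 54.6 in Col-0. RPS3, whose gene overlaps that of RPL16 in the RefSeq annotation of TAIR10.1, averaged 20.4 ± 2.54 FPKM in the heat libraries labelled smxl4 smxl5 and 10.5 ± 2.40 in those of Col-0, so reads of the overlap cannot be assigned to 1 of the 2 with certainty. The labels do not state whether counting used the strand. RPL2 averaged 11.2 ± 1.15 and 6.06 ± 0.556 FPKM in the same 2 groups. The cytochrome c maturation genes, whose products attach haem to c-type cytochromes, and MATR, a maturase encoded within an intron of nad1, were low in every group: the highest of their group means was 3.33 ± 0.331 FPKM, of CCB203 in the heat libraries labelled smxl4 smxl5, against 1.72 ± 0.706 in those of Col-0. ABCI2 and CCB382 averaged 1.59 ± 0.634 and 2.50 ± 0.469 in libraries labelled smxl4 smxl5 and 1.45 ± 0.199 and 1.89 ± 0.396 in Col-0.

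Some unassigned open reading frames reached levels of the annotated subunits. ORF114 had 88.5, 96.3 and 84.5 FPKM in the heat libraries labelled smxl4 smxl5 against 38.7, 52.8 and 46.0 in Col-0, and ORF240A had 50.7, 62.1 and 66.6 against 30.6, 44.7 and 29.3. ORF107A averaged 37.5 ± 7.21 FPKM in the heat libraries labelled smxl4 smxl5 and 24.9 ± 6.11 in those of Col-0, and ORF111D averaged 46.9 ± 6.35 and 30.2 ± 8.23.

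After heat, the mitochondrial transcripts were higher in the libraries labelled smxl4 smxl5 than in Col-0 across classes. Limma called 59 members higher and 1 lower, in a comparison in which 19.1% of all genes were called higher and 17.2% lower. The counts were 31 higher and 2 lower with a pseudocount of 0.1, and 26 and 0 with only the groups compared. The 59 comprised both ribosomal RNAs, 11 of 13 rows of complex I, 3 of 3 of complex IV, 4 of 5 of complex V, 4 of 5 for cytochrome c maturation, 5 of 7 ribosomal proteins and 30 of 44 open reading frames, whereas COB and MATR did not pass. With no filter, 62 of 121 mitochondrial rows were higher, against 13.3% of all genes. The median member change was 0.77 (log2), beside 0.01 over all genes tested. The 7 members that entered only through the heat libraries labelled smxl4 smxl5 had to be high there. Among the 50 members with at least 1 FPKM in all 3 Col-0 heat libraries, a choice made after the data had been seen, 43 were called higher and 0 lower. Over the 56 members whose Col-0 heat mean was at least 1 FPKM, the ratio of group means had a median of 1.83 and was above 1 in 54.

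The change from Col-0 after heat was 1.09 ± 0.14 for RRN18 (log2 ± SE, adjusted p 4.56e-06 in limma), 1.04 ± 0.10 for NAD6 (adjusted p 1.23e-07), 0.96 ± 0.11 for COX2 (adjusted p 1.10e-06), 0.91 ± 0.15 for RPS3 (adjusted p 5.42e-05) and 0.79 ± 0.11 for RPL2 (adjusted p 1.67e-05). In these 5, and in ORF117, the call held under every alternative run and without each library. ORF117 has a nuclear copy and was listed at 0 in all 3 Col-0 heat libraries, which can be a failed estimate. The call also held in ORF170, but the only 3 libraries in which ORF170 reached 1 FPKM were the heat libraries labelled smxl4 smxl5. The call of ORF170 therefore lends no weight. NAD5C, at 1.16 ± 0.12 (adjusted p 3.12e-07), lost the call with a pseudocount of 0.1 (adjusted p 0.0781), and RRN26, at 0.70 ± 0.16 (adjusted p 0.00159), lost it when only the groups compared were fitted (adjusted p 0.0801). The largest changes of non-overlapping members were those of ORF106F, at 1.34 ± 0.23 (adjusted p 9.59e-05), and ORF139A, at 1.31 ± 0.40 (adjusted p 0.0132). ORF106F had 33.5, 41.8 and 31.8 FPKM in the heat libraries labelled smxl4 smxl5 and 12.2, 15.7 and 12.4 in those of Col-0. ORF139A had 5.6, 9.19 and 7.39 against 0.361, 3.92 and 4.51, and its change was 0.67 without the first Col-0 heat library, where the call was lost (adjusted p 0.159), as it was without the second library labelled smxl4 smxl5 (adjusted p 0.0608). The single member called lower, ORF120, named after its values were seen, was at 0 in all 3 heat libraries labelled smxl4 smxl5 and at 1.08, 0 and 1.60 FPKM in Col-0, and its call was lost without the first or the third Col-0 library and without the first or the second library labelled smxl4 smxl5.

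**Figure D3:**
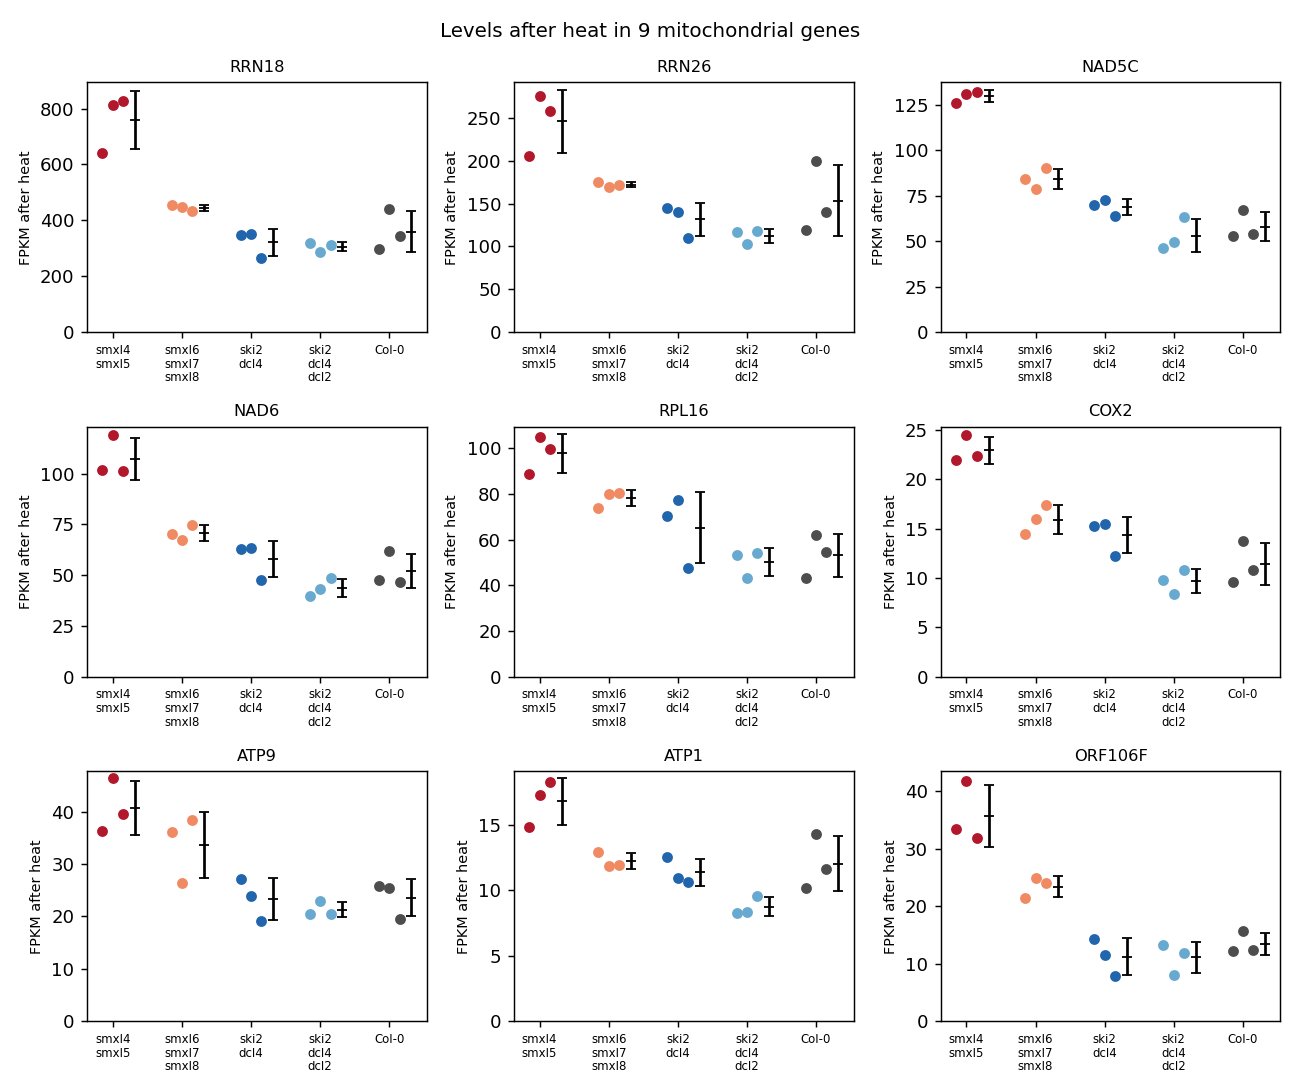
FPKM after heat in 9 mitochondrial genes by genotype, with 1 point per library, and the mean and SD (n = 3) beside the points. In RRN18, RRN26, NAD5C, NAD6, RPL16, COX2 and ORF106F the libraries labelled smxl4 smxl5, farthest left, lie above those of every other genotype.

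In smxl6 smxl7 smxl8 after heat, 21 members were higher than in Col-0 and none lower, against 11.7% of all genes called higher and 12.1% lower. One member had an unadjusted p under 0.05 in the lower direction. The count was 10 without the first Col-0 heat library, 10 without the third, 13 without the first smxl6 smxl7 smxl8 heat library and 11 without the third, and it was 3 with a pseudocount of 0.1 and 4 with only the groups compared. The 21 included 6 of 13 complex I rows and 4 of 7 ribosomal proteins, but neither ribosomal RNA, whose differences were 0.32 ± 0.14 for RRN18 and 0.20 ± 0.16 for RRN26 (log2, adjusted p 0.103 and 0.395). NAD6 changed by 0.45 ± 0.10 (adjusted p 0.00353) and NAD5C by 0.54 ± 0.12 (adjusted p 0.00330), and both lost the call with a pseudocount of 0.1, NAD6 also with only the groups compared. ORF106F changed by 0.76 ± 0.23 (adjusted p 0.0185), a call lost with a pseudocount of 0.1 and without Col-0 heat library 1 or 3 or smxl6 smxl7 smxl8 heat library 2 or 3. ORF107B, which had 0.763, 2.25 and 2.98 FPKM in smxl6 smxl7 smxl8 and was listed at 0 in all 3 Col-0 heat libraries, was called in every alternative run. That call rests on values of 0, which can be failed estimates. The nuclear copy of ORF107B, AT2G07724, rose with heat in Col-0 (log2 change 0.93 ± 0.15, adjusted p 1.39e-05 in limma). Of the 56 members with a Col-0 heat mean of at least 1 FPKM, 50 had a ratio of means above 1, with a median of 1.29.

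The ski2 genotypes lay closer to Col-0 after heat. In ski2 dcl4, 10 members were higher and 2 lower, with 22.3% of all genes called higher and 17.2% lower, and the ratio over the 56 members had a median of 1.00. NAD1C changed by 1.22 ± 0.26 (adjusted p 5.82e-04), and ORF117 by 1.31 ± 0.28 (adjusted p 6.34e-04), with 1.15, 1.70 and 1.63 FPKM in ski2 dcl4 and 0 in all 3 Col-0 heat libraries. The 2 lower members were RPL2, at 3.73, 5.53 and 3.56 FPKM in ski2 dcl4 against 5.57, 6.66 and 5.94 in Col-0, and ORF262, at 4.45, 4.27 and 3.29 against 6.03, 8.82 and 5.98. The counts were 20 higher and 1 lower with rescaling to the nuclear sum, 6 and 0 with a pseudocount of 0.1, and 2 and 1 with only the groups compared. The NAD1C and ORF262 calls were lost with a pseudocount of 0.1 and the RPL2 call in all 3 of these settings, whereas ORF117 was called in every alternative run. The ORF117 call rests on Col-0 values of 0, which can be failed estimates. The nuclear copy of ORF117, AT2G07676, rose with heat in Col-0 (log2 change 0.96 ± 0.30, adjusted p 0.00825 in limma). The higher count was 4 without the first ski2 dcl4 heat library, and the lower count was 5 without either the first Col-0 or the second ski2 dcl4 heat library.

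In ski2 dcl4 dcl2 after heat, 2 members were higher and 5 lower than in Col-0, with 2.94% of all genes called higher and 2.98% lower, and the ratio over the 56 members had a median of 0.851. With a pseudocount of 0.1 or with only the groups compared 0 members were lower, and with rescaling to the nuclear sum 2 were. The lower members were ORFB, COX1, ATP1, ORF240A and ORF262, of which ORF240A lost its call in 10 of 13 alternatives; ORFB, ATP1 and ORF262 lost theirs with a pseudocount of 0.1 and with only the groups compared, and ATP1 and ORF262 also with the nuclear sum. ORFB had 3.46, 4.496 and 5.84 FPKM in ski2 dcl4 dcl2 and 6.43, 8.14 and 7.61 in Col-0, a change of -0.60 ± 0.12 (adjusted p 0.00358). COX1, named after its values were seen, had 3.72, 3.69 and 3.10 against 4.24, 5.99 and 5.21, a change of -0.44 ± 0.09 (adjusted p 0.00430). The higher members were ORF170 and ORF105B, both under 2 FPKM, and with only the groups compared 0 were higher. Without the second Col-0 heat library 1 member was lower, and without the first or the second ski2 dcl4 dcl2 heat library 3 were. The higher count was 1 without the second Col-0 heat library and 0 without the third, or without the first or the third ski2 dcl4 dcl2 heat library. The 4 comparisons after heat share the Col-0 libraries, of which the second was the highest in RRN18, RRN26, COX2 and ATP1.

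**Figure D4:**
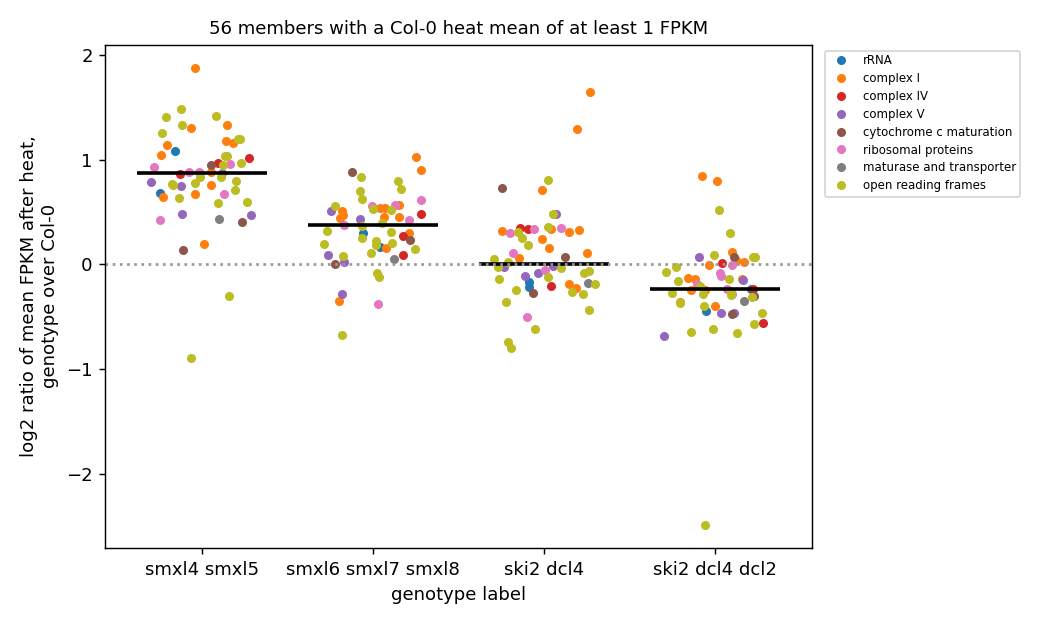
Log2 ratio of mean FPKM after heat, each genotype over Col-0, for the 56 members with a Col-0 heat mean of at least 1 FPKM, coloured by class, with bars at the medians. All 4 columns share the Col-0 libraries; the ratio is above 1 in 54 members in the libraries labelled smxl4 smxl5, 50 for smxl6 smxl7 smxl8, 28 for ski2 dcl4 and 13 for ski2 dcl4 dcl2.

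Without heat, few members differed from Col-0. In the libraries labelled smxl4 smxl5, 1 member was called higher and 1 lower, with 15.3% of all genes called higher and 14.8% lower. ORF114 had 1.49, 1.98 and 0.994 FPKM in them and 0.504, 0 and 0.949 in Col-0, and the call was lost without the second Col-0 control library or the second one labelled smxl4 smxl5. ORF107A had 0.626, 0 and 0 FPKM in libraries labelled smxl4 smxl5 and 0.634, 1.19 and 1.19 in Col-0, and lost the call without the second or the third library so labelled. ORF114 was also the 1 member called higher in ski2 dcl4, with 1.33, 1.33 and 2.33 FPKM (16.1% of all genes were called higher and 17.1% lower), and lost the call without the second Col-0 control library. Limma called no member in smxl6 smxl7 smxl8 (13.4% of all genes higher, 13.2% lower) and none in ski2 dcl4 dcl2 (1.49% higher, 0.172% lower), where 1 member each was higher at an unadjusted p under 0.05. At these levels a value rests on few fragments, and small differences of low members were not detectable at this depth.

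The difference of heat effects from that of Col-0 was tested as an interaction. In the libraries labelled smxl4 smxl5 it was called higher in 22 members and lower in none, while 0.725% of all genes were called higher and 1.36% lower; 55 members had an unadjusted p under 0.05 in the higher direction and none in the lower. The 22 comprised both ribosomal RNAs, 4 of 13 complex I rows, 3 of 3 of complex IV, 2 of 5 of complex V, 1 of 5 for cytochrome c maturation, 3 of 7 ribosomal proteins and 7 of 44 open reading frames. The count was 14 without the second heat library labelled smxl4 smxl5, 12 with only the groups compared and 6 with a pseudocount of 0.1. On the log2(FPKM + 1) scale, control values at 0 add nothing, so in members at 0 in control libraries this interaction repeats the difference after heat. In other members it also holds the difference at control. That difference reached -0.43 among the ribosomal proteins, -0.28 among the ribosomal RNAs and -0.76 among the open reading frames. The largest change of a ribosomal protein after heat was 0.91. The interaction was 1.59 ± 0.32 for ORF106F, 1.31 ± 0.24 for RPL16, 1.22 ± 0.17 for NAD5C and 0.92 ± 0.20 for RRN18 (adjusted p 0.0120, 0.00556, 6.85e-04 and 0.0180). None of these 4 calls held with a pseudocount of 0.1, where the adjusted p of RRN18 was 0.0564 and that of NAD5C 0.265. The RRN18 call was also lost with only the groups compared (adjusted p 0.0938) and without Col-0 heat library 1, Col-0 control library 2, or heat library 2 or control library 3 labelled smxl4 smxl5.

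The 7 members above 0 in all 30 libraries allow a ratio of heat to control means in each genotype. Between the libraries labelled smxl4 smxl5 and Col-0 this ratio was 259 against 143 for RRN18, 119 against 56.1 for RRN26, 93.9 against 47.6 for COX2 and 216 against 68.5 for ATP1. It went the other way in ORF240A, at 217 against 230.3, in ORF149, at 34.0 against 43.4, and in MATR, at 16.3 against 23.2. These ratios carry the counting error of control values of 0.0233 to 3.61 FPKM and were not tested. For the other interactions limma called 1 member, ORF170, in smxl6 smxl7 smxl8 (1.41% of all genes higher, 3.89% lower) and none in ski2 dcl4 (0.232% higher, 0.139% lower) or ski2 dcl4 dcl2 (0.0372% higher, 0.00929% lower). At an unadjusted p under 0.05, 14 members were higher and 0 lower in smxl6 smxl7 smxl8. By the same rule 7 were higher and 2 lower in ski2 dcl4, and 2 higher and 6 lower in ski2 dcl4 dcl2. ORF170 had 0.617, 0.835 and 0.800 FPKM in smxl6 smxl7 smxl8 heat libraries, 0.230, 0.450 and 0 in those of Col-0 and 0 in all control libraries, and its interaction of 0.53 ± 0.14 (adjusted p 0.0350) was lost in 9 of the fits that left out 1 library.

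The order of the members by level after heat was much alike between genotypes. Across the 81 members, Spearman's rho of mean heat levels with those of Col-0 was 0.938 for the libraries labelled smxl4 smxl5, 0.951 for smxl6 smxl7 smxl8, 0.927 for ski2 dcl4 and 0.952 for ski2 dcl4 dcl2, as a description over rows that share libraries and the same Col-0 values. As a percentage of the mitochondrial sum, RRN18 took 37.0 ± 1.77 in libraries labelled smxl4 smxl5 and 33.8 ± 0.239 in Col-0, RRN26 took 12.0 ± 0.450 and 14.3 ± 1.00, and COX2 1.13 ± 0.0903 and 1.07 ± 0.0221 (SD, n = 3 each).

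Many mitochondrial genes have near-identical copies in the nuclear genome, in the insertion of mitochondrial DNA on chromosome 2 known from Col-0, and reads may have been divided between copies. RefSeq notes matched 54 nuclear loci of that region to mitochondrial genes, and 32 members had such a copy. The summed FPKM of the copies was 142 to 369 in heat libraries and 4.33 to 7.74 in control libraries, without overlap. In 24 of 33 pairs of a member with its copy, the mean levels after heat lay within 2-fold of each other. The copy of ATP1 averaged 12.3 FPKM over the 15 heat libraries, beside 12.2 for ATP1, and that of ATP9 72.0 beside 28.5. The copy of COB, AT2G07727, averaged 1.44 beside 0.900. Unlike COB, this copy was called higher in heated libraries labelled smxl4 smxl5 than in heated Col-0 (log2 change 0.44 ± 0.10, adjusted p 0.00137 in limma). The 38 copies tested had passed the same 1 FPKM rule as the members. Most of them reached 1 FPKM in heat libraries only, so a count of rises with heat lends no weight to a heat effect. Of these 38, 36 rose with heat in Col-0 (29.9% of all genes), 27 were higher in heated libraries labelled smxl4 smxl5 than in heated Col-0 (19.1%) and 9 had a higher interaction (0.725%). The values of members with a copy are therefore uncertain in their level. RRN18, RRN26, NAD5C, NAD6, RPL16 and COX2 had no copy in this list. The list holds only annotated nuclear genes whose RefSeq notes name a mitochondrial locus, so absence from it does not show that no copy exists.

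**Figure D5:**
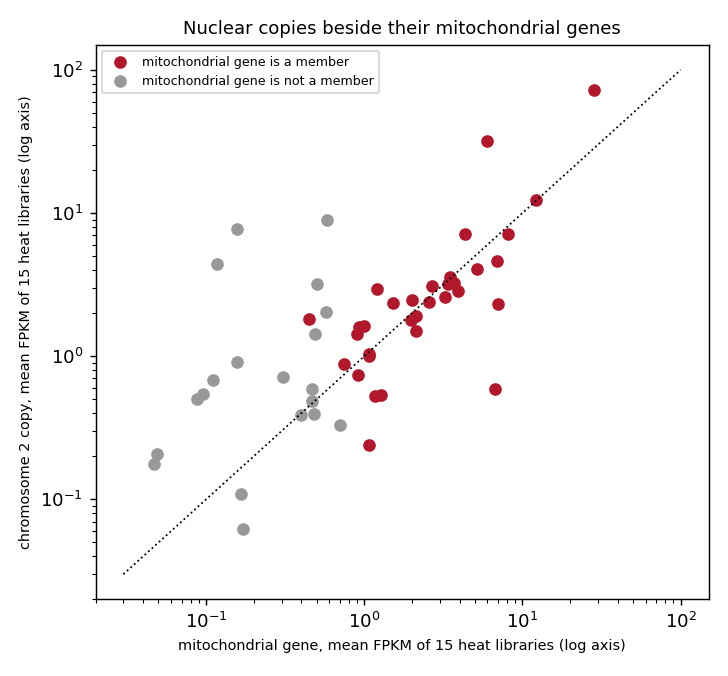
Mean FPKM of the 15 heat libraries for each mitochondrial gene (x axis, log) and its copy on chromosome 2 (y axis, log), for pairs with both means above 0. Red points are pairs of members, and 24 of these 33 pairs lie within 2-fold of the dotted line of equality.

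Nuclear genes for the same organelle moved on a much smaller scale. Of 34 nuclear genes for subunits of oxidative phosphorylation, 31 rose and 1 fell with heat in Col-0, where 29.9% of all genes rose and 27.3% fell, with a median of 0.46 (log2) and 27 to 32 rising in the other genotypes. AT1G51980, a core subunit of complex III that also serves as processing peptidase, averaged 131 ± 12.1 FPKM in heat libraries and 70.6 ± 1.32 in control libraries of Col-0 (log2 change 0.88 ± 0.05, adjusted p 4.00e-12), and EMB1467, a subunit of complex I, 89.5 ± 10.4 and 49.2 ± 1.49 (0.84 ± 0.06, adjusted p 2.55e-11). The gene that fell, AT3G15640, a cytochrome c oxidase subunit gene named after its value was seen, changed by -0.64 ± 0.06 (adjusted p 4.08e-09). After heat 23 of the 34 were higher and none lower in the libraries labelled smxl4 smxl5 than in Col-0, with a median of 0.20, beside 19.1% of all genes, and at control 26 were higher there (median 0.22), beside 15.3%. After heat 31 were higher and none lower (median 0.27) for smxl6 smxl7 smxl8, beside 11.7% of all genes, and at control 29 were higher (median 0.29), beside 13.4%. For ski2 dcl4 after heat, 1 was higher and 16 lower (median -0.13), beside 17.2% of all genes lower, and for ski2 dcl4 dcl2 5 were lower, beside 2.98%. At control 10 were lower for ski2 dcl4 (median -0.11), beside 17.1% of all genes, and 0 for ski2 dcl4 dcl2, beside 0.172%. None of the 34 had an interaction in any genotype.

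Of 20 tested nuclear genes for mitochondrial transcription, splicing, editing and decay, 3 rose and 11 fell with heat in Col-0 (29.9% and 27.3% of all genes), with a median of -0.36. ABO5, a pentatricopeptide repeat protein for splicing of a nad2 intron, averaged 1.91 ± 0.247 FPKM in heat libraries and 3.64 ± 0.206 in control libraries (-0.68 ± 0.08, adjusted p 1.80e-07), and ATSUV3, an RNA helicase, 2.59 ± 0.257 and 4.29 ± 0.497 (-0.56 ± 0.07, adjusted p 8.55e-07). The 3 that rose, named after their values were seen, were PMH2, AT4G31010 and MORF3. After heat 11 of the 20 were higher in the libraries labelled smxl4 smxl5 than in Col-0 (19.1% of all genes) and none lower, 7 were higher for smxl6 smxl7 smxl8 (11.7%), 5 for ski2 dcl4 (22.3%) and 1 for ski2 dcl4 dcl2 (2.94%). None of the 20 had an interaction called in any genotype, which the low shares of all genes given above for interactions do not set apart either. Whether these nuclear genes bear on the levels of the mitochondrial transcripts was not tested.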

How the data were processed

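Messenger RNA of 30 Arabidopsis seedling libraries was analysed from 1 deposited table. The authors deposited values that are treated here as FPKM. No header names the unit, which rests on values that are not whole and on smallest steps that shrink with transcript length. Bowtie is named without a version in the submitters' processing notes; for the counter, build and annotation nothing is stated, so no coordinates or sequences are printed. RefSeq TAIR10.1 served only for names, neighbours and nuclear copies.

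Values were used as log2(FPKM + 1). Limma 3.58.1 in R 4.3.3 was fitted to all 30 libraries with 1 mean per group and an intensity trend, over the 21531 genes that reached 1 FPKM in 3 or more libraries. P-values were adjusted by the Benjamini-Hochberg method in each comparison, and an adjusted p under 0.05 made a call. The 17 comparisons were heat in each genotype, each genotype against Col-0 without and with heat, and the interactions. The script was tested on simulated data. Groups and replicate numbers came from the labels. Same-numbered libraries were not paired by the data: in 0 of 13 comparisons did every pair's deviations correlate above 0.1. Precision is limited by about 13.5 to 25.1 fragments per FPKM and kb. The rule for naming members took the 3 of highest mean in each class and the 4 (heat effects) or 2 (others) largest called rises and falls whose libraries did not overlap, overlap being allowed in interactions. The members, gene lists and tests were chosen with earlier results of these data known. Alternatives were a pseudocount of 0.1, no filter, 3 rescalings, only the groups compared, a replicate block and leaving out each library.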

Additional observations from a re-analysis of the deposited data

Results flagged for a closer look

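The heat effect differed between the libraries labelled smxl4 smxl5 and Col-0, by limma's interaction test, in 14 of the members named here, and in each the heat effect was larger in the libraries labelled smxl4 smxl5. Over all genes tested, 0.725% were called higher and 1.36% lower in this interaction. ORF106F and ORF107A were named in part for this same test, so the 14 are not an independent count. On the log2(FPKM + 1) scale the difference was 1.59 for ORF106F, 1.34 for ORF107A, 1.31 for RPL16, 1.22 for NAD5C, 1.04 for NAD6, 0.99 for RRN26, 0.95 for COX2, 0.92 for RRN18, 0.91 for RPS3, 0.88 for ORFB, 0.86 for ORF262, 0.81 for RPL2, 0.80 for ORF170 and 0.58 for ATP1. None of these 14 calls held in every alternative: RRN26, ORF107A and ATP1 were lost with only the groups compared, and the others with a pseudocount of 0.1. ORFB, ORF262, RPL2 and ATP1 have nuclear copies in the list above. ORF170 became a member only through the heat libraries labelled smxl4 smxl5, so its difference for that label lends no weight. In smxl6 smxl7 smxl8 the heat effect of ORF170 was larger than in Col-0 by 0.53. That call was lost with a pseudocount of 0.1 and with only the groups compared.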

How the results depend on the processing

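No called change of a named member reversed its direction under any alternative. Of 2677 values of the named members under alternatives, 2450 kept their call and 227 lost it, 123 of these when 1 library was left out. The numbers do not pair the libraries (26 of 78 libraries correlated best with their own number); with the replicate block, members higher after heat in ski2 dcl4 dcl2 were 1 and the smxl6 smxl7 smxl8 interaction counted 2, and no other count moved by over 1.5 times. Rescaling to the nuclear sum moved the median change of all genes by -0.18 to -0.29 in heat effects and by 0.13 both at control and after heat for ski2 dcl4 over Col-0, and by 0.11 after heat for ski2 dcl4 dcl2; elsewhere it was under 0.1. It gave mitochondrial sums of 1724 (heat) for smxl4 smxl5, 1239 (heat) and 16.9 (control) for smxl6 smxl7 smxl8, 20.5 (control) for ski2 dcl4 and 15.3 (control) for Col-0. It also gave 20 higher and 1 lower members in ski2 dcl4 and 2 lower in ski2 dcl4 dcl2 after heat, 1 lower in ski2 dcl4 at control, and 2 in the smxl6 smxl7 smxl8 interaction.

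With a pseudocount of 0.1, members higher and lower than in Col-0 after heat were 31 and 2 with the label smxl4 smxl5, 3 higher in smxl6 smxl7 smxl8, 6 and 0 from ski2 dcl4 and 0 lower in ski2 dcl4 dcl2. At control they were 3 and 4 with the label smxl4 smxl5, 1 and 3 from smxl6 smxl7 smxl8 and 3 and 2 from ski2 dcl4, and the interactions counted 6 and 0 higher for smxl4 smxl5 and smxl6 smxl7 smxl8. With only the groups compared, which leaves fewer libraries to estimate the spread, they were 26 and 0, 4 higher, 2 and 1, and 0 and 0 after heat in the same order. At control this fit gave 0 higher where labelled smxl4 smxl5 and 1 lower in smxl6 smxl7 smxl8, and its interactions counted 12, 0 and 1 for smxl4 smxl5, smxl6 smxl7 smxl8 and ski2 dcl4. Among members with 1 FPKM in all 3 Col-0 heat libraries, chosen after seeing the data, 0 were lower where labelled smxl4 smxl5. The cause of these changes was not tested.

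Leaving out 1 library, heat effects counted 72 to 75 members where labelled smxl4 smxl5, 72 to 74 for smxl6 smxl7 smxl8, 68 to 75 for ski2 dcl4, 65 to 68 for ski2 dcl4 dcl2 and 62 to 67 for Col-0. After heat, higher members ranged from 44 (without the first Col-0 library) to 60 where labelled smxl4 smxl5, 10 to 30 for smxl6 smxl7 smxl8, 4 to 15 for ski2 dcl4 and 0 to 2 for ski2 dcl4 dcl2; lower ones 0 to 1, 0, 2 to 5 and 1 to 6. At control they ranged from 0 to 2 higher and 0 to 1 lower where labelled smxl4 smxl5, 0 to 1 higher in smxl6 smxl7 smxl8, and 0 to 2 higher and 0 to 1 lower in ski2 dcl4. Interactions counted 14 to 28 for smxl4 smxl5 and 0 to 3 for smxl6 smxl7 smxl8.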
